A study of Drosophila melanogaster with 12 samples.

Results

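Neurons fire because ion channels open and close in their membrane. The sodium channel and the calcium channels let positive charge in, potassium channels let it out and return the membrane to rest, and leak channels set the resting level between impulses. In Drosophila the voltage-gated potassium channels were first found through shaking mutants, Shaker and ether-a-go-go among them. Such genes are markers of neurons that have begun to differentiate rather than of dividing precursors. The 9 genes described here are Task7, Sh, Shal, Shab and eag, which encode potassium channels, para, which encodes the voltage-gated sodium channel, cac, which encodes the pore subunit of the presynaptic calcium channel, and the regulators qvr and jus. They were found by gene symbol among the 11980 genes with a single symbol on the array and were represented by 11 of 14569 probes, 3 of them for Sh and 1 for each other gene. Task7, qvr and jus were chosen by their mutant minus wildtype difference in these same arrays, which was among the largest falls, and the other 6 genes were added because they are channels. The differences of these genes between the groups are therefore given as descriptions. They support nothing by themselves.

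Each sample was a pool of neuroblasts and ganglion mother cells, the smaller daughters of neuroblast divisions, taken from the ventral nerve cord of stage 11 embryos kept at 25 degrees C. The mutant group had 6 samples from pros17/pros17 embryos, homozygous for an allele of prospero, a homeodomain transcription factor gene. The group called wildtype had 6 samples from pros17/TM3-KrGFP embryos, which carry the same allele over a marked balancer of chromosome 3, so both groups carried pros17. Each pool held 50 to 100 cells, and its amplified cDNA was hybridised with Cy3 and Cy5 dyes against a common reference of RNA from some 30 entire w1118 embryos, aged stage 10 to stage 12. The cells were in Cy3 on replicates 1 to 3 of each group and in Cy5 on replicates 4 to 6. Nothing in the labels says that the pools came from separate embryos, so p-values measure only how far these samples differ, and that spread may be technical.

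Values are log2 ratios of cells over reference, a direction that is likely but not stated in the labels, and differences are mutant minus wildtype. A ratio compares a gene with itself in the reference and does not rank genes by abundance. The arrays gave 8421 to 10030 ratios each. A row (a gene, or a single probe without a unique symbol) was tested if it had 4 or more ratios among the 6 mutant and among the 6 wildtype arrays, which left 8165 rows. Signal over background is unknown, and the number of arrays limits the precision. The pros transcript itself had ratios from -3.95 to -2.13 in mutant samples (median -2.81) and from 0.88 to 3.29 in wildtype samples (median 2.25). The groups did not overlap for pros. The neuroblast markers dpn, wor, ase, mira and grh had array medians of 1.61 to 2.76 in mutant and 0.17 to 2.32 in wildtype samples, so the median of the list lay above the whole-embryo reference on every array. This did not hold for each marker. In wildtype samples dpn, wor and ase were above the reference throughout, grh ran from -3.30 to -0.40 and mira from -2.35 to 0.46. In mutant samples grh ran from -0.79 to 0.65. All 5 markers had higher means in the mutant. Of them 3 (dpn, ase and mira) passed a limma adjusted p of 0.05, where 1.58% of all rows passed with higher values. With the cells in Cy5 their differences were 2.86, 2.59 and 2.73, and each passed. With the cells in Cy3 they were 1.26, 0.39 and 1.35, and none passed. For ase the change between the dyes passed as well (2.19, limma adjusted p = 0.0457).

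Whether a channel gene could be measured at all differed between the members. Places deposited as exactly 0 were read as having no ratio. Values larger than 11 in either direction were read as signal from only 1 of the dyes. Shab had no ratio on any of the 12 arrays, a state it shared with 1504 genes, or 12.6% of all named genes. The sodium channel gene para gave no ratio either, with signal in the cells' channel only on mutant replicate 3 and nothing on the other 11 arrays. The potassium channel gene eag had a ratio on wildtype replicate 6 (4.73) and on no mutant array. Shal, the gene of a rapidly inactivating potassium channel, gave ratios of 0.39, 1.64 and 0.49 on mutant replicates 1, 3 and 6 and signal in the cells' channel only on mutant replicate 4. On wildtype replicates 2 and 3 its ratios were 1.0 and 4.23, and signal was in the cells' channel only on wildtype replicates 5 and 6. Where Shal was measured it was thus above the reference in both groups, and the groups overlapped. These 4 genes could not be tested. Without spot intensities an empty place does not show that the gene was silent.

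**Figure D1:**
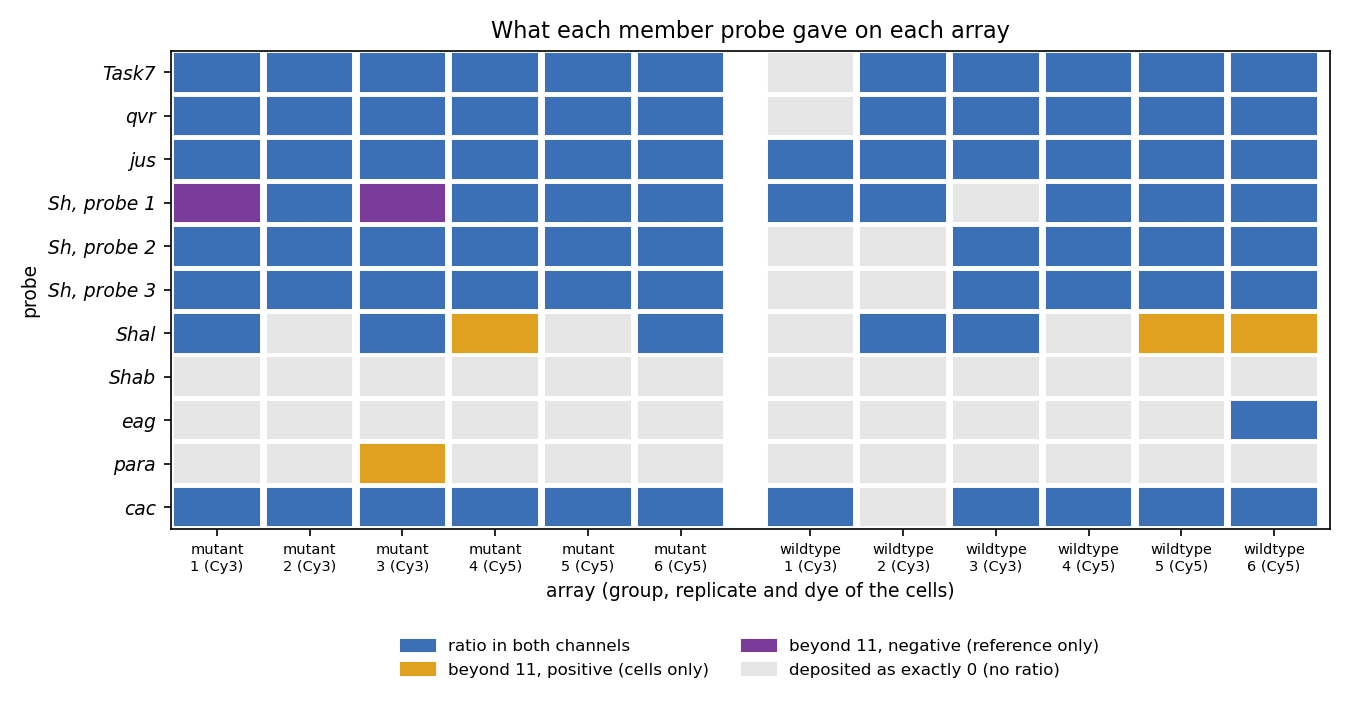
Each row is a probe of a member gene and each column an array, mutant arrays on the left and wildtype arrays on the right, with the dye of the cells in brackets. Blue marks a ratio, orange and purple mark signal in 1 channel only, and grey marks a place deposited as exactly 0. Task7, qvr, jus and cac gave a ratio on nearly every array, whereas the rows of Shab, eag and para are almost empty.

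The remaining 5 genes, Task7, qvr, jus, cac and Sh, could be tested, and 3 of them, the 3 picked for this difference, passed an adjusted p of 0.05 with lower values in the mutant. Among all rows tested 4.95% passed, 3.37% with lower and 1.58% with higher values in the mutant. The median difference of the 5 genes was -3.43, and that of all rows was -0.13. Nothing is read from that contrast, because the choice of members used it.

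Task7 encodes a leak potassium channel of the TASK family, the tandem-pore channels that hold the membrane near rest. Its ratios in mutant samples ran from -9.12 to 0.48 with a median of -1.81. In wildtype samples they were 0.14 and 1.33 on replicates 2 and 3 and 3.65, 3.76 and 3.89 on replicates 4 to 6, and replicate 1 had no ratio. All 5 wildtype values were above the reference, and 5 of 6 mutant values were below it. The groups still overlapped, since mutant replicate 4 (0.48) lay above wildtype replicate 2 (0.14). The fitted difference was -4.70 (SE 1.16, 95% interval -7.27 to -2.12), or 25.9-fold. Mutant replicate 3, at -9.12, stood far from the rest of its group, and without it the difference was -3.72. Task7 passed in 3 of the 12 fits that each left out an array, those without wildtype replicate 1, mutant replicate 2 or mutant replicate 3.

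The gene qvr (quiver, also called sleepless) encodes a membrane-anchored protein of the Ly6 family that raises the level and activity of the Shaker channel and promotes sleep. Its ratios in mutant samples ran from -5.21 to -3.28 with a median of -4.15. In wildtype samples they were 0.23 and -2.21 on replicates 2 and 3 and -0.32, 0.83 and 0.89 on replicates 4 to 6. The groups did not overlap, which held for 2.52% of all rows with lower values in the mutant and 3.48% in either direction. The fitted difference was -4.09 (SE 0.57, 95% interval -5.36 to -2.82), or 17.1-fold. It ran from -4.74 to -3.82 when single arrays were left out, and qvr passed in all 12 of these fits.

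The gene jus (julius seizure) encodes a membrane protein whose loss makes flies prone to seizures after a mechanical shock. Its ratios in mutant samples ran from -5.07 to -3.73 with a median of -4.46. In wildtype samples they ran from -4.0 to 0.47 with a median of -0.41. Mutant samples were tightly grouped, and wildtype replicate 3 (-4.0) fell inside their range while the other 5 wildtype samples lay above it. The fitted difference was -3.43 (SE 0.51, 95% interval -4.55 to -2.30), or 10.8-fold. It ran from -3.93 to -3.19 without single arrays, and jus passed each time.

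The calcium channel gene cac (cacophony) encodes the channel whose calcium current triggers transmitter release at fly synapses. Its ratios in mutant samples ran from -4.50 to -0.82 with a median of -3.06. In wildtype samples they were -0.83 and -1.53 on replicates 1 and 3 and -0.21, 0.36 and -0.33 on replicates 4 to 6. The groups overlapped through mutant replicate 5 (-0.82). The fitted difference of -2.25 (SE 0.62, 95% interval -3.63 to -0.87) did not pass (limma adjusted p = 0.0612). Without mutant replicate 5 it was -2.70 and passed (limma adjusted p = 0.0321). Its adjusted p lay between 0.0321 and 0.342 under the alternatives. Task7 and cac were the genes just inside and just outside the threshold, at adjusted p of 0.0466 and 0.0612.

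Sh encodes the Shaker potassium channel, which shapes the repolarisation of the action potential and is the channel that the qvr protein acts on. Its ratios, averaged over probes, ran from -2.70 to -1.52 in mutant samples with a median of -1.86, and from -3.82 to -1.09 in wildtype samples with a median of -1.86. Sh was below the whole-embryo reference on every array of both groups, and the groups overlapped. The fitted difference was 0.07 (SE 0.39, 95% interval -0.79 to 0.92, limma adjusted p = 0.933). The interval leaves room for a difference in either direction. The average joins different probes on different arrays, since 2 of the 3 probes had no ratio on wildtype replicates 1 and 2, and the remaining probe had signal in the reference channel only on mutant replicates 1 and 3. Tested as rows of their own, the 3 probes had differences of 0.56, -0.48 and 0.55 (limma adjusted p of 0.769, 0.165 and 0.392), so they differed in sign and none passed.

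**Figure D2:**
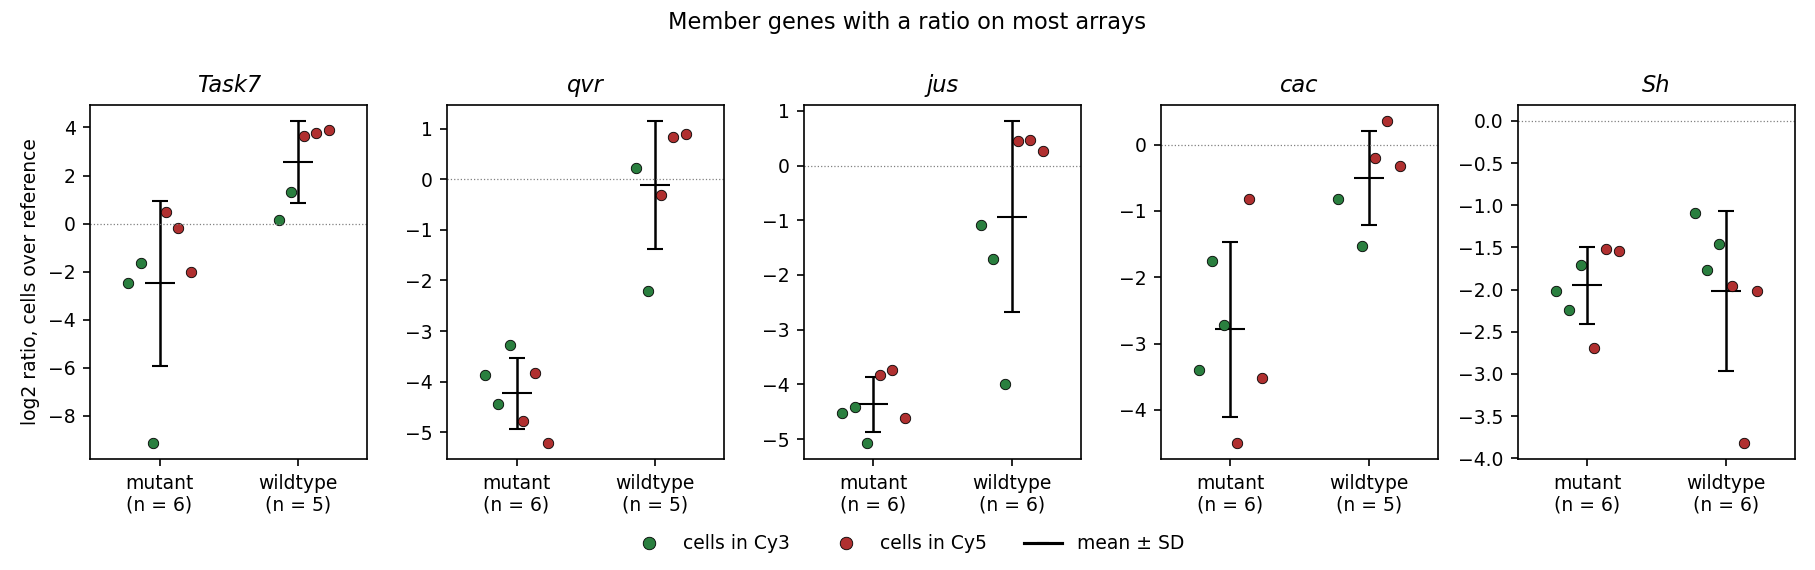
Log2 ratios of cells over reference (vertical axis) of the 5 member genes that could be tested, with a point for each sample, mutant on the left and wildtype on the right, and bars for the mean and SD. For qvr the groups are apart, for Task7, jus and cac they touch through single samples, and for Sh their ranges overlap throughout. Green points are arrays with the cells in Cy3 and red points arrays with the cells in Cy5.

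Part of these differences changed between the arrays with the cells in Cy3 and those with the cells in Cy5. In both groups Cy3 goes with replicates 1 to 3 and Cy5 with replicates 4 to 6. The dye and any other difference between these sets of pools therefore cannot be told apart. What is called a change with the dye holds both. With the cells in Cy5 the differences of Task7, qvr, jus and cac were -4.34, -5.07, -4.45 and -2.89, and with the cells in Cy3 they were -5.14, -2.87, -2.40 and -1.45. All 4 genes were thus lower in the mutant in both orientations. The wildtype arrays with the cells in Cy5 read higher than those in Cy3, by 3.03 for Task7, 1.46 for qvr, 2.65 for jus and 1.12 for cac. In the mutant the same gaps were 3.84, -0.75, 0.61 and -0.32. The wildtype gap was not particular to the members. Among neuronal markers it was 2.48 for nSyb, 3.06 for VAChT, 2.20 for ChAT, 1.84 for fne, 2.77 for brp and -0.06 for elav. For the neuroblast markers dpn, wor, ase, mira and grh it was -2.10, -0.82, -1.57, -1.73 and -1.13. Mutant gaps ran from -1.59 to 2.36 for these neuronal and from -0.76 to 0.62 for these neuroblast markers. What lies behind these gaps was not tested. For Task7 the mutant gap and the Cy3 difference rested largely on mutant replicate 3 (-9.12). Mutant replicates 1 and 2 had -2.47 and -1.63. The Cy3 wildtype means of Task7, qvr and cac came from 2 arrays each. For jus, wildtype replicates 4, 5 and 6 had 0.44, 0.47 and 0.26, while wildtype replicates 1, 2 and 3 had -1.08, -1.71 and -4.0. With the cells in Cy5, 3 members passed, among 6.9% of all rows, and with the cells in Cy3 0 members passed, among 0.0254% of all rows.

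The change of the difference with the dye was tested for each row as a term of the model. The choice of the members did not use this term, but it used the same arrays. Task7, qvr and cac had 2 wildtype and 3 mutant ratios in Cy3. For them the term is therefore not independent of the group difference. Of the 5 genes 0 passed (limma with Benjamini-Hochberg adjustment), where 0.416% of all rows did, and 2 had an unadjusted p under 0.05, where 15.7% of all rows did. These were qvr, with a difference of differences (Cy5 minus Cy3) of -2.20 (95% interval -4.39 to -0.02, limma adjusted p = 0.313), and jus, with -2.05 (95% interval -3.97 to -0.12, limma adjusted p = 0.285). For Task7, cac and Sh it was 0.81, -1.44 and 1.23 (limma adjusted p from 0.443 to 0.910). For Task7 the interval from -4.65 to 6.27 was wide, and its Cy3 values include mutant replicate 3 (-9.12).

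Leaving out single arrays showed on which samples each difference rested. The plot of these omissions has Task7 between -5.22 and -3.72, cac between -2.70 and -1.78 and Sh between -0.27 and 0.21. Among them the sign of Sh turned, in the fits without mutant replicate 5, mutant replicate 6 or wildtype replicate 5, and that of the other 4 genes did not. After each array was centred on its median the differences of Task7, qvr, jus and cac stayed negative as well, although the median difference of all rows then moved by 0.20, to 0.07.

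**Figure D3:**
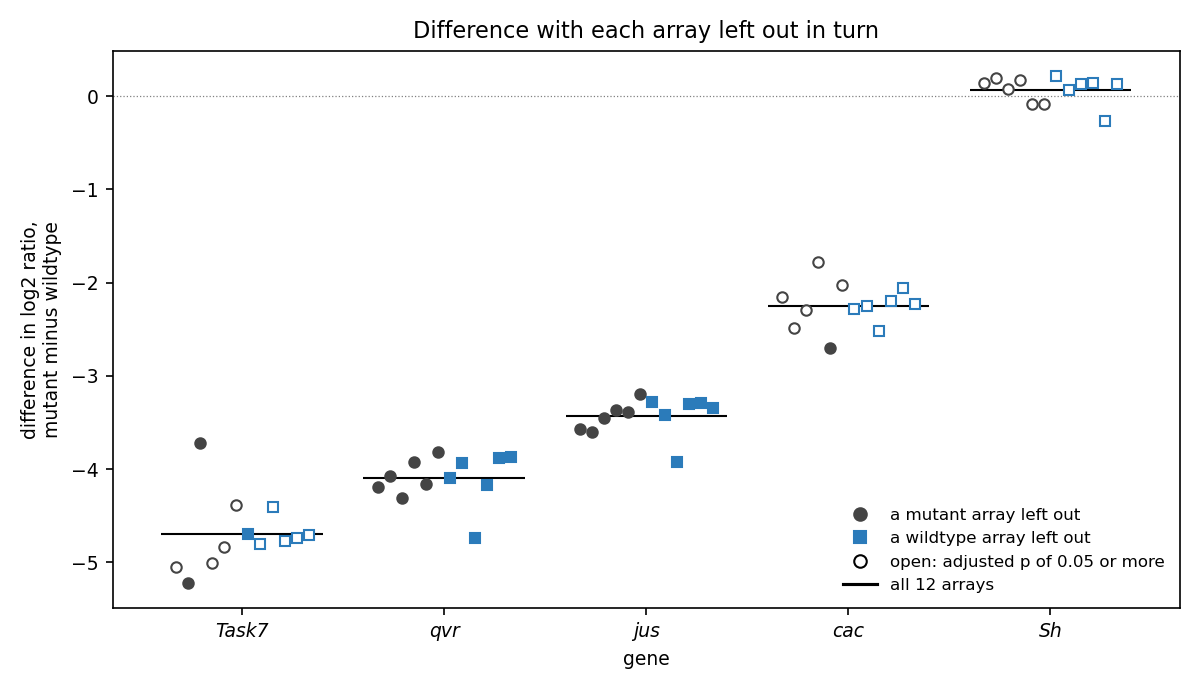
Difference in log2 ratio, mutant minus wildtype (vertical axis), of 5 member genes with each of the 12 arrays left out in turn. Circles stand for an omitted mutant array and squares for an omitted wildtype array, filled where the gene passed, and the lines mark the fit with all 12 arrays. The points of qvr and jus are filled throughout, those of Task7 in 3 fits and those of cac in 1.

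The genes lie on several chromosomes, and the control animals carried a balancer of chromosome 3. Task7 and jus lie on arm 3R and Shal and Shab on 3L, and for these the pros17 mutation and the chromosome it sits on cannot be told apart. The gene qvr lies on 2R, and cac, Sh, eag and para lie on X. In pools of cells, fewer cells of a type and less RNA per cell cannot be told apart either. Markers of other cells moved beside the channel genes. For comparison, 3.37% of all rows passed with lower and 1.58% with higher values in the mutant. Of 6 tested neuronal markers, 3 fell, nSyb, VAChT and ChAT, and array medians of the list ran from -1.88 to 0.40 in mutant and from -0.07 to 2.66 in wildtype samples. The other 3 did not pass. The pan-neuronal gene elav had a difference of 0.14 and fne had -0.29, and both lie on X. For brp, for which no arm was found, it was -2.47 (limma adjusted p = 0.0894). These values average unlike ones for fne and brp. In Cy5 fne had -1.51 and brp -4.90, and both passed there (limma adjusted p = 0.0322 and 0.0398). In Cy3 they had 0.94 and -0.53 and did not pass. The difference of elav was -0.06 in Cy5 and 0.35 in Cy3. Of 4 tested glial markers 1 fell (repo), and of 3 tested muscle markers 1 fell (htl), with array medians from -2.04 to 0.25 in mutant and -0.65 to 0.56 in wildtype samples for glia, and from -2.45 to -0.43 in mutant and -0.38 to 0.74 in wildtype samples for muscle. Of 4 tested hemocyte markers 1 rose, with array medians from 0.61 to 1.47 in mutant and 0.22 to 1.64 in wildtype samples, and of 2 tested epidermal and tracheal markers 1 rose, with array medians from -2.62 to -1.60 in mutant and -4.32 to -3.07 in wildtype samples and no ratio for btl on any array. Gut markers had a median difference of -0.54. Of the markers that passed here, nSyb lies on 3L. VAChT, ChAT, repo, htl, SPARC (hemocyte) and pnr (epidermis and trachea) lie on 3R, as does the neuroblast marker mira. For all of these the limit given for Task7 and jus holds. The part of the markers in the differences above was not tested.

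The genes whose ratios followed each gene most closely over the arrays were looked up among those with a ratio on every array where the member had one. For qvr, over 11 arrays, these were SPoCk, which encodes a calcium pump of the secretory pathway (Pearson r = 0.977), wry (0.972) and CG3907 (0.968). For Task7, over 11 arrays, they were the cuticle protein gene Cpr65Ax2 (0.927), CG13908 (0.917) and CG12123 (0.913). For jus, over 12 arrays, they were CG17270 (0.921), the oligosaccharyltransferase subunit gene Stt3B (0.913) and the ubiquitin ligase gene LUBEL (0.910). Among the members, qvr and jus correlated at 0.897, Task7 and jus at 0.789, jus and cac at 0.781 and Task7 and qvr at 0.602, each over 11 arrays. The correlation of cac was 0.826 with qvr and 0.589 with Task7, each over 10 arrays. Sh had negative correlations with Task7, jus and qvr, from -0.38 to -0.32. These are descriptions over arrays that share the group difference and the dye.

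To set the members against their families, 8 lists of other channel genes and their partners were drawn up by gene family, 94 genes in all. Of these 80 were on the array under a single symbol and 49 could be tested. With the same fit, 3 fell, 0 rose and 46 did not pass, so 3 of 49 stands near the 4.95% of all rows. The directions depended on the scaling, since 3 fell and 4 rose after median centring, and 1 fell and 3 rose after quantile normalization. At an unadjusted p under 0.05, 23 of the 49 passed, 17 of them lower in the mutant, where 25.9% of all rows passed and 16.2% did so with lower values. Both shares of the 49 were thus above those of all rows. The lists were drawn up with earlier results of these data known, and this excess was not tested. The median difference of the 49 genes was -0.51, against -0.13 over all rows, and 31 of the 49 had a negative difference, as did 4845 of all 8165 rows.

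The 3 genes that fell were a calcium channel and a pair of chloride channel genes. ClC-a encodes a voltage-gated chloride channel of the ClC family. Its ratios ran from -2.05 to -0.44 in mutant samples (mean -1.09 ± 0.67, SD, n = 6) and from -0.23 to 2.26 in wildtype samples (mean 1.25 ± 1.01, SD, n = 6). The groups did not overlap, and the difference was -2.34 (SE 0.35, limma adjusted p = 0.00659). It passed in all 12 omissions of an array. It was -1.99 in Cy5 and -2.68 in Cy3, and passed in neither dye alone (limma adjusted p = 0.102 and 0.0666). When zeros and one-channel values stayed in, it was -4.49 and did not pass (limma adjusted p = 0.309). The gene subdued encodes a calcium-activated chloride channel of the anoctamin family. Its mean ratio was -2.26 ± 0.36 in mutant and -1.16 ± 0.60 in wildtype samples (SD, n = 6 each), a difference of -1.09 (SE 0.19, limma adjusted p = 0.0133) that also passed in every omission. It did not pass after quantile normalization (-0.81, limma adjusted p = 0.0834) or without a dye term (limma adjusted p = 0.0727). It was -1.28 in Cy5 and -0.91 in Cy3, and passed in neither dye alone (limma adjusted p = 0.0502 and 0.268). Ca-alpha1D encodes the pore subunit of the L-type calcium channel. Its mean ratio was -3.26 ± 0.68 in mutant and -1.57 ± 1.19 in wildtype samples (SD, n = 6 each), a difference of -1.68 (SE 0.39, limma adjusted p = 0.0327). It passed in 4 of the 12 omissions, and over all 12 the difference ran from -1.98 to -1.43. It was -2.35 in Cy5, where it passed (limma adjusted p = 0.0324), and -1.02 in Cy3 (limma adjusted p = 0.418). The groups overlapped for subdued and for Ca-alpha1D. ClC-a and subdued lie on 3R, with the limit given for Task7, and Ca-alpha1D lies on 2L.

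**Figure D4:**
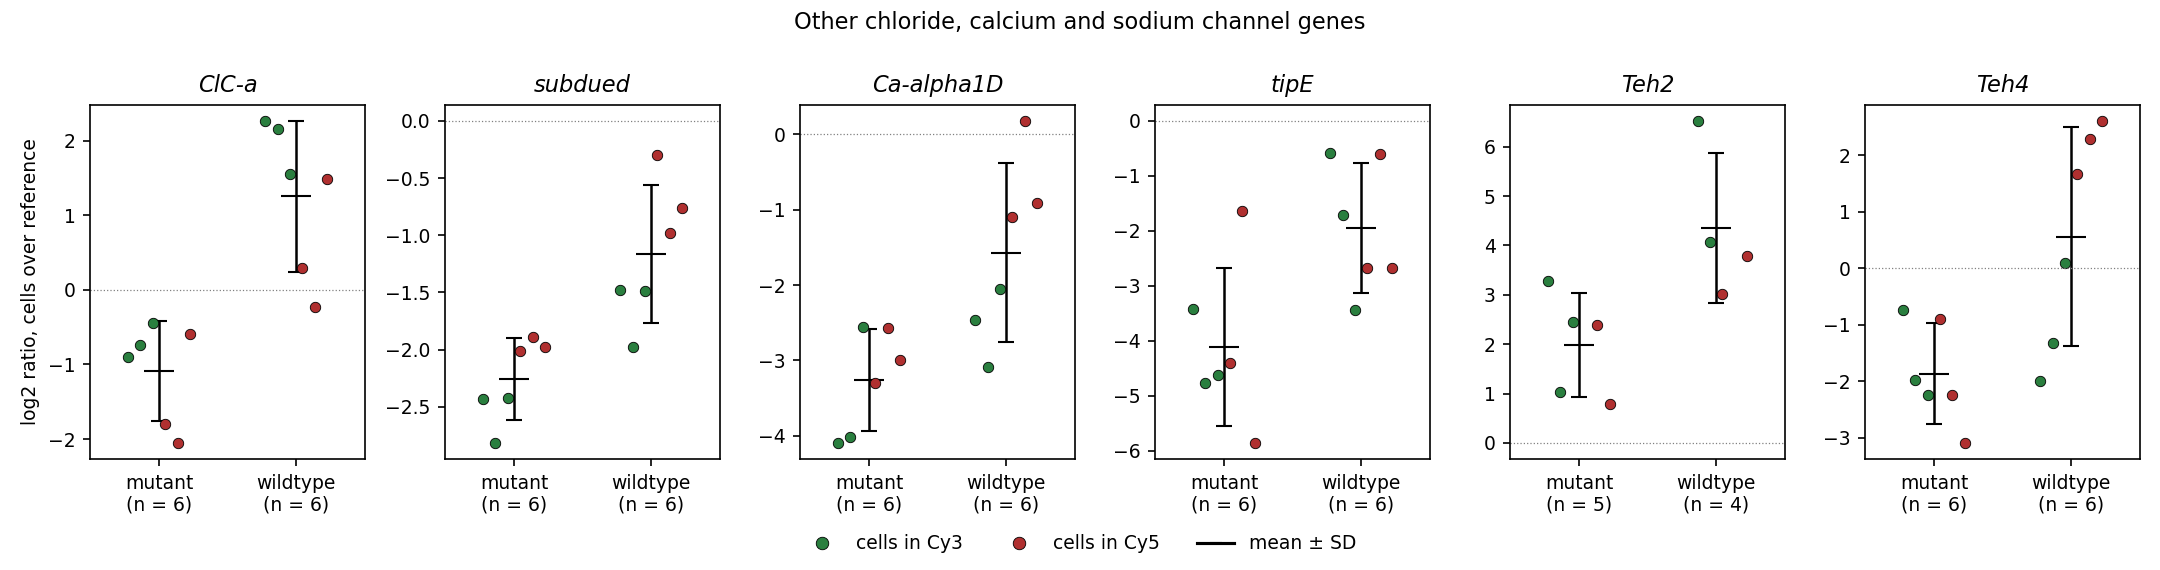
Log2 ratios of cells over reference (vertical axis) of 6 other channel genes by sample, mutant on the left and wildtype on the right, with the mean and SD, green for cells in Cy3 and red for cells in Cy5. ClC-a, subdued and Ca-alpha1D passed the threshold, and of these only ClC-a has groups that do not overlap. For tipE, Teh2 and Teh4 the means are lower in the mutant, the groups overlap and the test was not passed.

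Among 9 tested potassium channel genes other than the members 0 passed in limma, with 4 at an unadjusted p under 0.05, and their median difference was -0.51. Shaw, a slow voltage-gated potassium channel gene, had a difference of -2.30 (limma adjusted p = 0.118), and wildtype replicate 2 alone stood high in its group. The ratios of galene were -2.79, -2.50, -0.67 and -0.91 in mutant samples and 0.13, -0.24, -0.40 and -0.60 in wildtype samples. They did not overlap, and the difference was -1.44 (limma adjusted p = 0.138). CG34396 had a positive difference of 1.67 (limma adjusted p = 0.0589), from a mean of 0.03 ± 0.64 in mutant and -1.64 ± 1.03 in wildtype samples (SD, n = 6 each). It passed after median centring and after quantile normalization. Of 5 tested potassium channel partners 0 passed in limma, with 2 at an unadjusted p under 0.05. The scaffold gene CASK had -1.28 (limma adjusted p = 0.0686), the scaffold gene dlg1, whose protein clusters Shaker, -0.97, and the calcium sensor gene Frq1 -0.85.

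The Para protein works with auxiliary subunits, and genes of some of these could be measured although para could not. Of 6 tested sodium channel genes and partners 0 passed in limma, 4 had an unadjusted p under 0.05, all with lower values in the mutant, and the median difference was -1.80. The auxiliary subunit gene tipE had a mean ratio of -4.11 ± 1.44 in mutant and -1.95 ± 1.18 in wildtype samples (SD, n = 6 each), a difference of -2.17 (limma adjusted p = 0.0896). Teh2, a tipE relative, had 3.28, 1.04, 2.45, 2.40 and 0.78 in mutant samples and 6.52, 4.07, 3.02 and 3.78 in wildtype samples, a difference of -2.48 (limma adjusted p = 0.0668). Its values were above the reference on all 9 arrays with a ratio, and the groups overlapped at 3.28 and 3.02. Teh4, another relative, had a difference of -2.42 (limma adjusted p = 0.0646). It was -4.26 in Cy5, where it passed (limma adjusted p = 0.0160), and -0.58 in Cy3. All 3 genes lie on 3L.

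Ly6 relatives of qvr had a median difference of 0.42, and 0 of 6 passed in limma, with 4 at an unadjusted p under 0.05. Among them twit had -2.47 (limma adjusted p = 0.0907), which was -4.68 in Cy5, where it passed (limma adjusted p = 0.0157), and -0.27 in Cy3. The genes crok and cold, both needed for septate junctions, had 0.70 and 0.64 (limma adjusted p = 0.0653 and 0.184), and crok passed with higher values after median centring. In the calcium list, the calcium release channel gene RyR had -1.90 (limma adjusted p = 0.156), and the store-operated entry genes Orai and Stim had -0.59 and 0.46. The sign for Orai turned with the dye, at 0.50 in Cy5 and -1.67 in Cy3. The cyclic nucleotide-gated channel gene CngA had -1.98 over all arrays, with 1.21 in Cy5 and -5.18 in Cy3. Its relative Cngl had -1.41 and the TRP channel gene nan -0.76, and 0 of these 6 other cation channel genes passed in limma, with 1 at an unadjusted p under 0.05.

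The chloride channel genes that did not pass were Best1, at 0.77, ClC-c, at 0.27, and ClC-b, at -0.15, with limma adjusted p from 0.456 to 0.778. Their groups overlapped. Of 5 tested genes known from bang-sensitive or other excitability mutants, as jus is, 0 passed in limma, with 3 at an unadjusted p under 0.05. The RNA-binding protein gene cpo had -1.07 (limma adjusted p = 0.123), which was -1.95 in Cy5, where it passed (limma adjusted p = 0.0285), and 0.03 in Cy3. The ethanolamine kinase gene eas had -0.55, and the gap junction gene ogre 0.67 (limma adjusted p = 0.0834). In ogre, mutant ratios ran from -0.48 to -0.15 and wildtype ratios from -1.57 to -0.39. Its wildtype ratios were -1.35, -1.57 and -1.54 with the cells in Cy5 and -0.46, -0.39 and -0.62 with the cells in Cy3. Mutant minus wildtype, ogre had 1.2 in Cy5, where it passed (limma adjusted p = 0.0397), and 0.14 in Cy3. The change with the dye did not pass (limma adjusted p = 0.132). It passed with higher values after median centring and after quantile normalization.

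**Figure D5:**
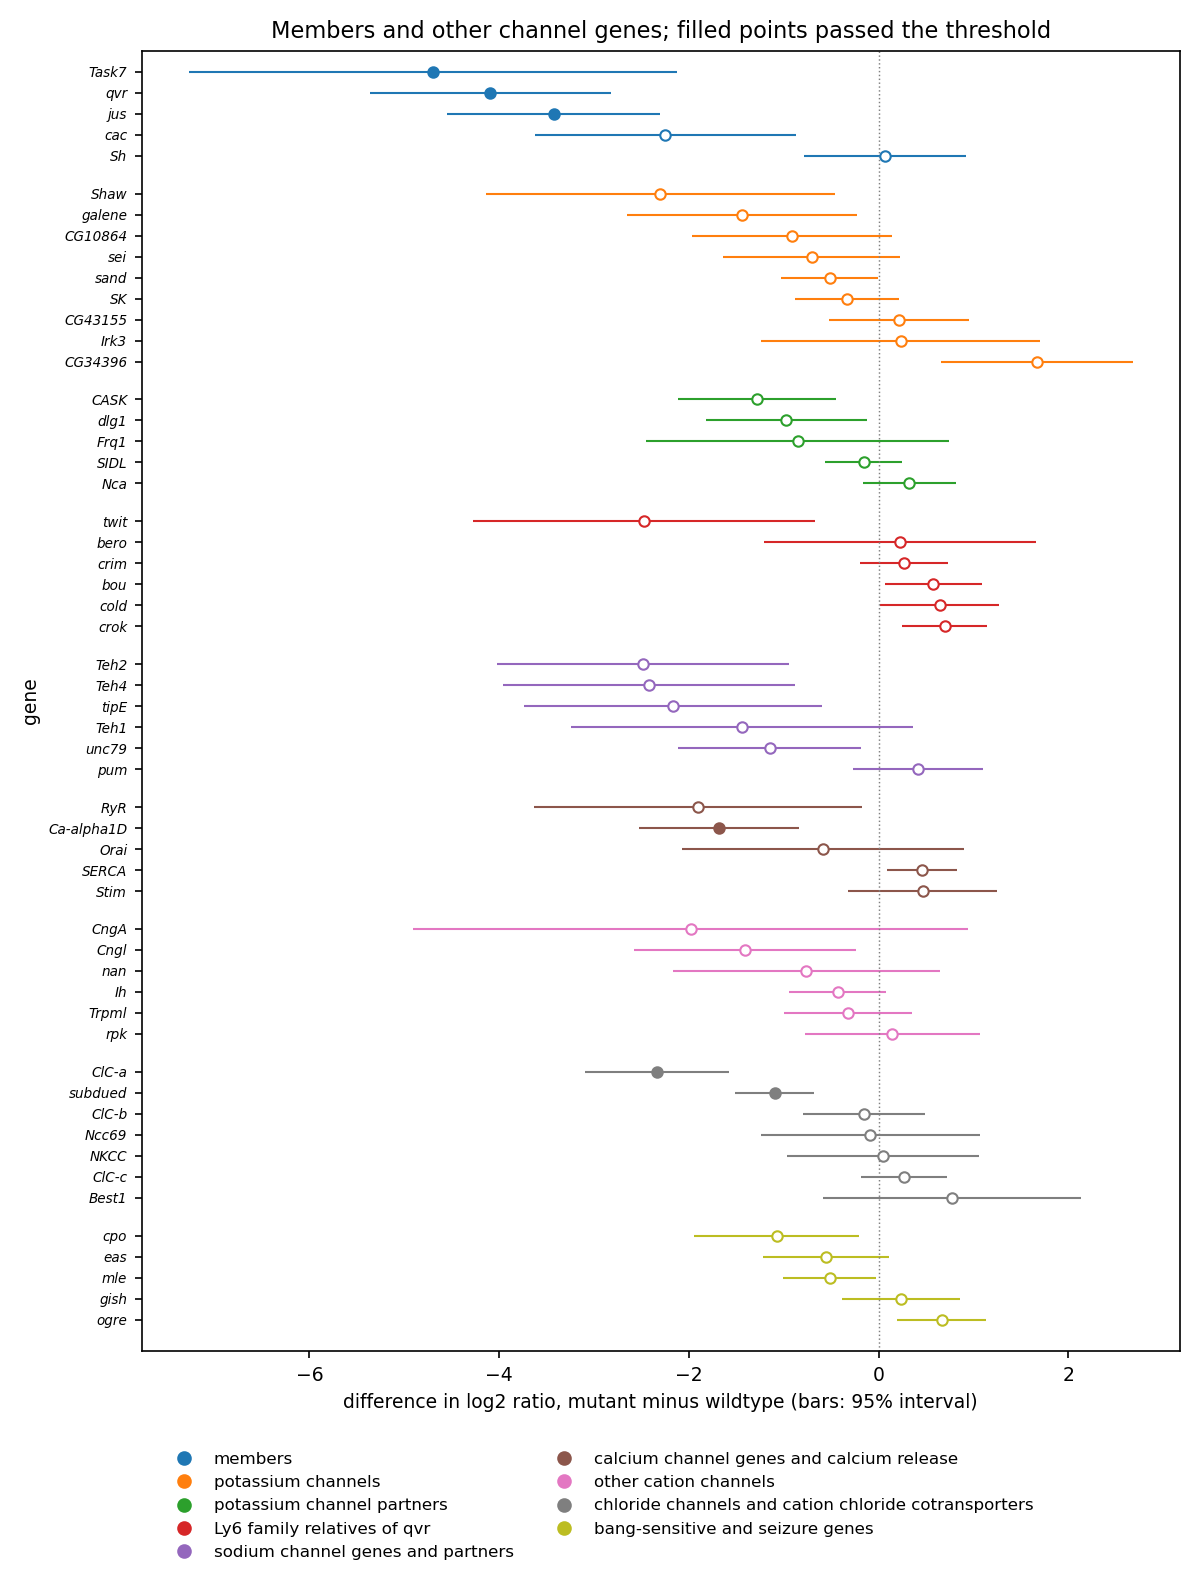
Differences in log2 ratio, mutant minus wildtype (horizontal axis), with 95% intervals, for the 5 tested members (top) and the 49 tested genes of 8 other lists. Filled points passed the threshold. Task7, qvr, jus, ClC-a, subdued and Ca-alpha1D are filled, all with lower values in the mutant.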

How the data were processed

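The deposited values are log2 ratios of cells and reference that the authors made from 2-colour arrays, read as log2 from the values. No source used here gives their scanner, background correction or scaling, so dim spots stayed in, and centring is unknown. Column medians ran from -0.12 to 0.20 in mutant and from 0.04 to 0.51 in wildtype arrays, and no further normalization was applied. Exact zeros and values beyond 11 were set to missing, and a gene's probes were averaged. Differences came from limma 3.58.1 (R 4.3.3), modelling group plus the cells' dye, with Benjamini-Hochberg adjustment over all 8165 rows and a threshold of 0.05. A second model added the product of group and dye. The procedure was tested on simulated data, with 50 rows changed at each size. At log2 differences of 1, 2, 3 and 4, 30%, 62%, 88% and 94% passed with the right sign. A gene that did not pass may therefore still differ. Of 7965 unchanged rows 7 passed. The simulated noise was normal, with the same spread in both groups, and the simulated dye effect was the same in both. In the real arrays the change with the dye had an unadjusted limma p under 0.05 in 15.7% of rows. The simulated shares may therefore be too favourable for these arrays. Genes were named from the platform annotation, and chromosome arms come from the RefSeq gene table. Members and lists were chosen with earlier results of these data known. Named are the 9 members, pros, listed genes past the threshold (up to 8 per list), up to 3 others per list with the largest differences, the 3 genes most like each member that passed, and markers. Of 94 listed genes, 14 had no probe with a single symbol here and were not analysed. The alternatives were other treatments of zeros, filters, scalings and dye terms, each dye alone, a replicate block and leaving out each array.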

Additional observations from a re-analysis of the deposited data

Results flagged for a closer look

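Of 66 groups of a gene examined for a sample far from the others, 4 held one, where chance gives about 1 in 20. Task7 had -9.12 in mutant replicate 3, and the other mutant samples ran from -2.47 to 0.48. Sh had -3.82 in wildtype replicate 5, and the other wildtype samples ran from -2.02 to -1.09. Shaw had 3.45 and Cngl 4.45 in wildtype replicate 2, and the other wildtype samples ran from -1.93 to -0.39 for Shaw and from 0.07 to 1.28 for Cngl.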

How the results depend on the processing

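The differences of Task7, qvr, jus and cac were negative under every alternative that could be fitted, from -5.22 to -3.72, -5.07 to -2.87, -4.45 to -2.40 and -2.89 to -1.45. Sh had -2.73 with zeros and one-channel values kept. Over all alternatives, qvr passed in 19 of 21, jus in 21 of 22, Task7 in 7 of 21 and cac in 1 of 21. The count of members past the threshold, 3, was 1 with all 6 ratios required in each group (which leaves Task7, qvr and cac untested), 1 with the replicate block, 0 with the cells in Cy3 alone and 2 to 3 without single arrays. The count of the 49 other channel genes, 3, was 1 with zeros and one-channel values kept, 1 without a dye term, 0 with the cells in Cy3 alone, 5 with the cells in Cy5 alone, 5 with each probe as a row, and 2 to 5 without single arrays, with 5 without wildtype replicate 1, wildtype replicate 2 or mutant replicate 3. After median centring it was 7, of which 3 fell and 4 rose (CG34396, SERCA, crok and ogre). The count of all rows, 404 (275 lower and 129 higher), was 132 with zeros and one-channel values kept, 187 without a dye term, 611 (219 lower and 392 higher) after median centring, 491 (178 lower and 313 higher) after quantile normalization, 2 with the cells in Cy3 alone and 117 to 549 without single arrays. It was 144 and 152 without wildtype replicate 5 or 6, and 267, 117 and 161 without mutant replicate 1, 4 or 6. ClC-a passed in 19 of 22 alternatives, subdued in 18 and Ca-alpha1D in 9. The cause of these changes was not tested.

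With the replicate block 106 rows passed. The calls of qvr (adjusted p = 0.0505), Task7 (0.0794) and Ca-alpha1D (0.0518) in limma were lost under it and that of tipE was gained. Same-numbered arrays of the groups correlated in their deviations from group and dye means at 0.06 to 0.26, all positive and over 0.1 in 3 of 6 pairs (median 0.14, against -0.03 for other pairs). Of the arrays, 2 of 6 mutant and 3 of 6 wildtype ones matched their own number best. The labels do not say that a number marks a shared batch, and the samples are treated as sharing only a number. The change of a member's difference with the dye passed in limma for 0 members under each of 18 alternatives.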
